A study of Mus musculus with 6 samples.

Results

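The Tbx3 locus was followed through the exit of mouse embryonic stem cells from the naive state in 3 lists of accessible chromatin made by ATAC-seq, in which a transposase cuts and tags DNA that is not packed away. The deposited lists held 258093 intervals in all. Tbx3 received 62 of them, because the protein-coding gene end nearest to the midpoint of each was an end of Tbx3 and lay within 100 kb. After overlapping intervals of the 3 lists were merged, these were 34 of 131410 regions. All 6 samples were E14 cells, with 100000 live cells used per sample, and tagged fragments of 200 to 700 bp were kept. The 2 samples of the 2iL group were grown in N2B27 medium with 2i and LIF, that is the GSK3 inhibitor CHIR99021 at 3 uM, the MEK inhibitor PD0325901 at 1 uM and the cytokine leukaemia inhibitory factor. The 2 samples of the 48h group and the 2 of the 96h group were taken 48 and 96 hours after these agents were withdrawn. Samples A and B of a group share 1 deposited list, and nothing states that they came from separate cultures. The lists give no spread between samples, so differences between times carry no test, and the intervals given below cover counting error only.

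Tbx3 encodes a T-box transcription factor, a protein that binds DNA through the T-box domain it shares with Brachyury and Eomes. In mouse embryonic stem cells it is known as part of the naive network that LIF feeds, upstream of Nanog and beside Klf4 and Esrrb. Forced Tbx3 expression is also known to push these cells towards extraembryonic endoderm. RefSeq placed Tbx3 at chr5:119670534-119684724 of GRCm38.p6, the patched form of mm10, a span of 14191 bp. Positions below are distances of a region's midpoint from the lower end of the gene, where transcription starts, so negative values lie before the start. The next protein-coding gene below was Med13l, a subunit of the Mediator kinase module, 905 kb away. The next above was Tbx5, a T-box factor of heart and forelimb, 112 kb away.

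Several long noncoding RNAs lay in the same interval. Tbx3os1 starts inside Tbx3 and runs away from it at chr5:119611253-119671508, and Tbx3os2 lies just beyond the far end of Tbx3 at chr5:119685088-119691218. The RefSeq promoter windows of these transcripts, from 250 bases before to 50 bases after the start, are shown because Tbx3os2 started inside an accessible region found in all 3 lists, while Tbx3os1 did not. Both windows are on the minus strand of GRCm38.p6, at chr5:119691169-119691468 for Tbx3os2 and chr5:119671459-119671758 for Tbx3os1, and are written 5′ to 3′. Capitals mark a match to the core CTCF consensus in Tbx3os2 and a KLF/SP box in Tbx3os1.
Tbx3os2: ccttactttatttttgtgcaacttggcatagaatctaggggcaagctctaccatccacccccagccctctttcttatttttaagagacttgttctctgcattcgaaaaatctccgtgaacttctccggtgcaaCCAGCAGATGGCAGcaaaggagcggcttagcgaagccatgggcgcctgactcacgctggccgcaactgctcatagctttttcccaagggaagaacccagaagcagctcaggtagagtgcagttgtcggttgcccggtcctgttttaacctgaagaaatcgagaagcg
Tbx3os1: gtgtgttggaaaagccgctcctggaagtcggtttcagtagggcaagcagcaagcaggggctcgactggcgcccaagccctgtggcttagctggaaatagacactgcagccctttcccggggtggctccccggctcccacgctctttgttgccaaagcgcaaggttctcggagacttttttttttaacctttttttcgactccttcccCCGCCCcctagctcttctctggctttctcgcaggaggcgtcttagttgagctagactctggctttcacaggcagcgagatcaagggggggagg

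Accessible intervals covered 285 bp of the Tbx3os2 window in the 2iL list, 290 bp in the 48h list and all 300 bp in the 96h list. Their summits lay at 119691274, 119691274 and 119691284. The CTCF consensus match ran from 119691322 to 119691335 (bases 134 to 147 of the window), 48, 48 and 38 bp from the 3 summits. CTCF is the zinc-finger protein that sets chromatin loop ends, and its core consensus was found in 110 of 32851 mouse promoter windows of this length (0.335%). This motif was added to the search after the sequences had been read, and a match is a description of letters only. The motifs of the original search, looked for on both strands, were the T-box AGGTGTGA, STAT TTCNNNGAA, the orphan nuclear receptor element AAGGTCA, KLF/SP GGGCGG and GGGTGTGG, OCT ATTTGCAT, SOX ACAATGG and ACAAAGG, TCF/LEF CTTTGAT, the paired TFCP2L1 element, the CCAAT box, the TATA box TATAAA and the E-box CACGTG. None of these was in the Tbx3os2 window. The Tbx3os1 window held 1 GGGCGG box, which 35.7% of all promoter windows hold, and no interval overlapped it, the nearest being 293 bp away in the 2iL list and 306 bp away in the other lists. G and C made up 50.7% of the Tbx3os2 window, which had 12 CpG dinucleotides, and 57.3% of the Tbx3os1 window, which had 14. The medians over all windows were 52.7% and 7.

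Accessible intervals around Tbx3 became fewer at each time. The 2iL list gave the gene 28 intervals, the 48h list 19 and the 96h list 15, and the sequence they covered went from 18.1 kb to 12.6 kb and 9.42 kb. The covered length at Tbx3 at 96 h was 52.1% of that in 2iL, against 83.2% for all intervals of the lists, which themselves held 91228, 88810 and 78055 intervals. Intervals within 1 kb of an end of the pluripotency genes Pou5f1, Nanog and Sox2 numbered 2, 2 and 1 in 2iL, 1, 2 and 2 at 48 h and 1, 2 and 1 at 96 h, so these defining genes of the labelled cells were open in every list. In 2iL, 51 of the 18250 genes with any region had more regions than Tbx3, and the median gene had 3. At 96 h, 307 genes had more. These ranks were not adjusted for the length of sequence from which the assignment rule lets a gene draw regions. The protein-coding neighbours of Tbx3 lie 905 and 112 kb away. When only the intervals above the median p-value strength of each list were used, Tbx3 had 11, 4 and 8 intervals, so the 48h count was then the lowest.

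The signal behind each interval was read as the number of tags piled up at its strongest summit. This pileup was recovered from the authors' deposited fold enrichment and p-value, on the assumption of a Poisson p-value and of 1 tag added to both pileup and background in the fold. It came out as whole tags for 100% of summits within 0.02 tags. The same calculation gave the local background that each summit was compared with. The most common background of a list was taken as its genome-wide level. It was 14.20 tags in the 2iL list, 15.18 in the 48h list and 13.99 in the 96h list. Values behind the ratios between times, and local backgrounds given as multiples, were divided by this level. Tag counts of single regions and their Poisson intervals are given unscaled. The total reads of each list are unknown.

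**Figure D1:**
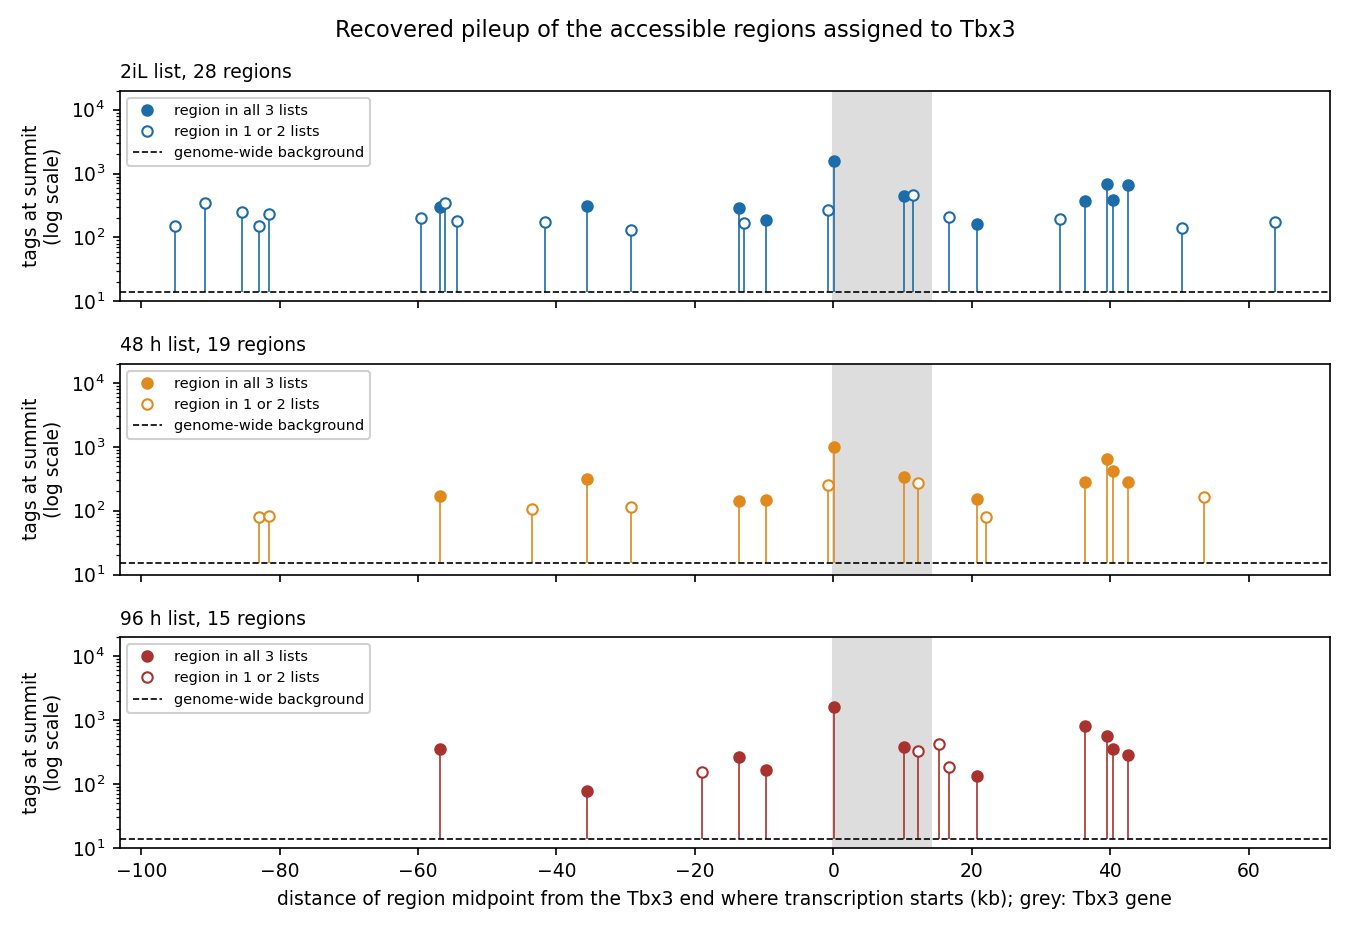
Recovered pileup in tags (log scale) at the strongest summit of every region assigned to Tbx3, against distance from the transcription start end in kb, in the 2iL, 48h and 96h lists; filled points are the 11 regions in all 3 lists, open points the others, stems rise from the genome-wide background (dashed), and grey marks the gene. Over 1 kb before the start, 15 regions are listed in 2iL and 5 at 96 h, while the cluster from 36.3 to 42.5 kb stays listed.

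More of the lost regions lay on the lower side of the gene, over 1 kb before its start, than over the rest of the locus. Of the 17 regions there, 15 were in the 2iL list, 8 in the 48h list and 5 in the 96h list. By 96 h, 11 of those 15 regions were gone, 73.3% (95% exact binomial interval 44.9 to 92.2). Over the gene and its upper side, with the region at -0.7 kb counted here, 5 of 13 were gone, 38.5% (13.9 to 68.4). The 2 intervals overlap. Across the 2iL list, 44.9% of all regions and 51.6% of distal ones (over 1 kb from any gene end) were gone by 96 h, and the latter share lies inside both intervals.

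More than 50 kb before the start, 2iL cells had 9 regions, 48h cells 3 and 96h cells 1. Those at -95.2, -90.7 and -85.4 kb were in the 2iL list only, with pileups of 153, 342 and 253 tags. The pair at -83.0 and -81.5 kb had 149 and 229 tags in 2iL and 81 and 84 tags at 48 h, and was no longer listed at 96 h. These 5 regions form an outer group in which no interval was left at 96 h. The inner group sat near the far end of Tbx3os1. There, the regions at -59.6, -56.1 and -54.4 kb had 201, 349 and 182 tags in 2iL and were in no later list. The region at -56.9 kb, chr5:119613345-119613998, stayed in all lists with 303, 167 and 358 tags. Its direct neighbour at -56.1 kb had the higher pileup of the pair in 2iL and was lost.

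Between 50 and 1 kb before the start, 6, 5 and 4 regions were listed. The region at -35.5 kb, chr5:119634648-119635386, had 313 tags in 2iL (95% Poisson interval 279 to 350), 316 at 48 h (282 to 353) and 78 at 96 h (61.7 to 97.3). It kept its level through 48 h and was far below it at 96 h, when its width was 273 bp after 721 and 739 bp. The region at -13.6 kb had 292, 142 and 268 tags, with the 48h value the lowest, and the region at -9.7 kb had 190, 147 and 168. The weaker region at -29.2 kb, with 131 and 115 tags, was listed through 48 h. Regions at -41.6 and -12.9 kb, with 174 and 171 tags, were in the 2iL list alone. The region at -43.5 kb (108 tags) was in the 48h list alone and that at -18.9 kb (154 tags) in the 96h list alone.

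The start of Tbx3 itself was open throughout. The promoter region, chr5:119670209-119671165, had 1564 tags in 2iL (1487 to 1643), 988 at 48 h (927 to 1052) and 1611 at 96 h (1533 to 1692). The 2iL and 96h values are close and the 48h value lies outside both intervals. Its width was 957, 939 and 928 bp. Among the intervals of its own list it stood at percentile 98.7, 93.3 and 97.1 by pileup, and it had the highest pileup of the locus at every time. A weaker region at -0.7 kb, just before it, had 267 tags in 2iL and 252 at 48 h and was not listed at 96 h.

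Inside the gene, near its far end, the region at 10.2 kb had 439, 343 and 382 tags in the 3 lists and narrowed from 1778 to 1376 and 869 bp. The next 2 regions did not share lists. The region at 11.6 kb, with 462 tags, was in the 2iL list only, and that at 12.3 kb, just beyond it, had no 2iL interval but 270 and 325 tags at 48 and 96 h. Past the gene end the region at 15.3 kb, inside Tbx3os2, was the strongest of those gained by 96 h, with 419 tags (380 to 461). The region at 16.8 kb had 207 tags in 2iL and 187 at 96 h and was absent from the 48h list. The region at the Tbx3os2 start (20.7 kb), whose sequence is given above, had 163, 153 and 133 tags, and its Poisson intervals overlap at all times.

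A cluster of 4 regions past the far end of the gene, from 36.3 to 42.5 kb, was listed at all times. After the promoter it held the highest 2iL pileup, 695 tags at 39.6 kb (chr5:119709762-119710459), with 635 and 557 tags at 48 and 96 h. The region at 40.5 kb had 383, 421 and 351 tags. The outer members both had fewer tags at 48 h than in 2iL but differed in direction from 2iL to 96 h. At 36.3 kb, chr5:119706371-119707387, there were 367, 285 and 823 tags, and the 96h interval of 768 to 881 lies above both others. At 42.5 kb, chr5:119712725-119713435, there were 673, 285 and 288 tags, and the width was 711 bp in 2iL and 259 and 268 bp later. The other upper regions were each in 1 list. Those at 32.7, 50.4 and 63.8 kb had 192, 143 and 172 tags in 2iL, and those at 22.1 and 53.5 kb had 81 and 165 tags at 48 h.

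The local background of the locus was lower at 48 h. This background, which the p-value is measured against, is taken here to count tags in the wider surroundings of a summit. The peak caller is not given, so this is an inference. Its recovered values did not go below the genome-wide level, within rounding. In 2iL, 23 of 28 Tbx3 intervals (82.1%) had a local background above 2 times the genome-wide level, against 41.5% of all intervals of that list. At 48 h there were 9 of 19 (47.4%, all intervals 42.3%) and at 96 h 11 of 15 (73.3%, all intervals 40.2%). All 15 Tbx3 regions shared by the 2iL and 48h lists had a lower local background at 48 h relative to the genome-wide level, with a median ratio of 0.594 and a range of 0.283 to 0.895. Of the 60329 regions shared by these lists, 52.1% were lower, the median ratio was 1.00, and 7.34% had a ratio at or under 0.594.

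From 48 to 96 h the local background went the other way in 10 of the 12 shared Tbx3 regions, with a median ratio of 1.26, while 40% of all shared regions were lower and their median was 1.00. Over the whole course it was lower in 10 of 12, with a median ratio of 0.760, against 49.5% of all regions. At -83.0 kb it went from 3.08 times the genome-wide level in 2iL to 1.00 at 48 h. At -56.9 kb it was 3.77, 1.07 and 1.65 times that level, and at the promoter 8.26, 6.69 and 10.4 times. Close neighbours share most of the surroundings they are compared with, as the 110 and 109 background tags of the regions at 39.6 and 40.5 kb in 2iL show, so these regions are not independent of each other. No control library is among the samples, so the background may also hold tags of the regions themselves. It is not shown to be independent of their pileups. An interval is listed only where its pileup stands out from this background. The lowest interval score was 540 in each of the 3 lists, and how samples A and B were joined is not given. Any further rule for listing, such as agreement between the samples, was not tested. A region missing from a list is therefore not shown to be closed.

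**Figure D2:**
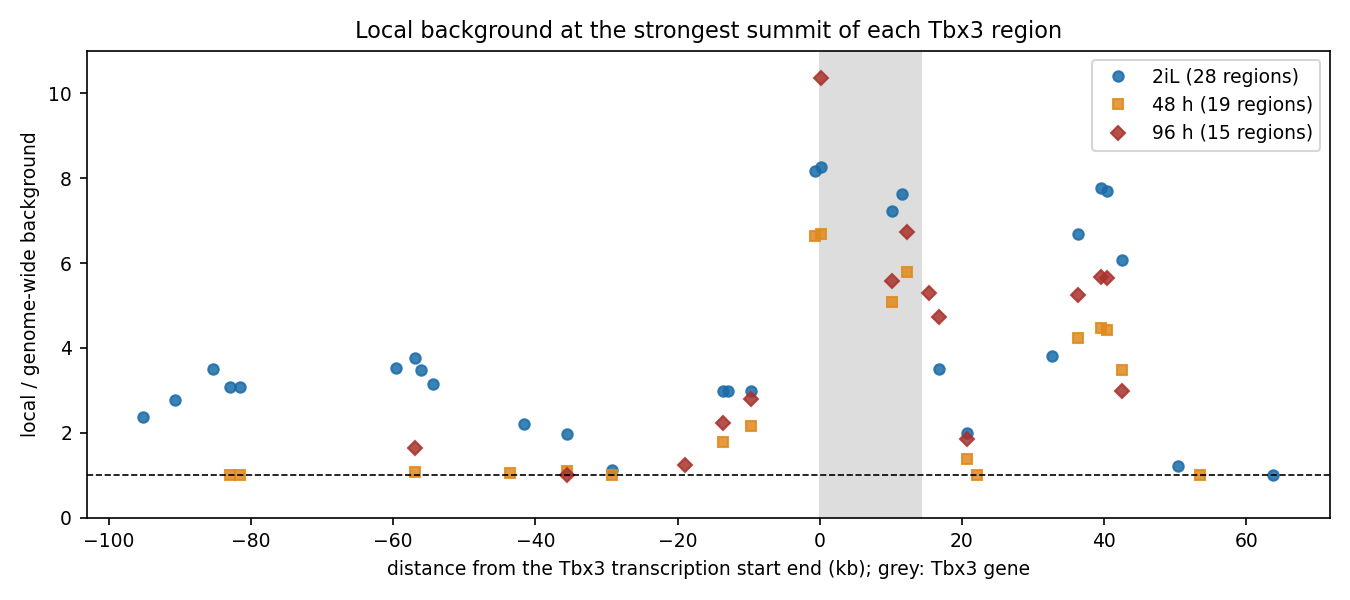
Local background at the strongest summit of each Tbx3 region, in multiples of the genome-wide level of its list (dashed line at 1), against distance from the transcription start end in kb; colours and shapes are the 3 lists, grey marks the gene. From -83.0 to -29.2 kb the 48h squares lie near 1, as at -83.0 kb (1.00), where the 2iL value is 3.08.

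The 11 regions in all 3 lists had lower pileup at 48 h. After division by the genome-wide background, 10 of 11 were lower at 48 h than in 2iL, with a median ratio of 0.726 and a range of 0.396 to 1.03. The exception was the region at 40.5 kb. Among all 47176 regions in all 3 lists 35.7% were lower and the median ratio was 1.13. From 48 to 96 h, 7 of 11 were higher and 4 lower, with a median ratio of 1.21, against 1.08 for all regions, of which 41.8% were lower. From 2iL to 96 h, 8 were lower and 3 higher, with a median of 0.898, against 1.20 and 34.7% lower for all. Since most regions of the lists had ratios above 1, the counts below the median of all regions are also given: 11 of 11 from 2iL to 48 h, 4 from 48 to 96 h and 10 from 2iL to 96 h. The promoter ratios were 0.591, 1.77 and 1.05.

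**Figure D3:**
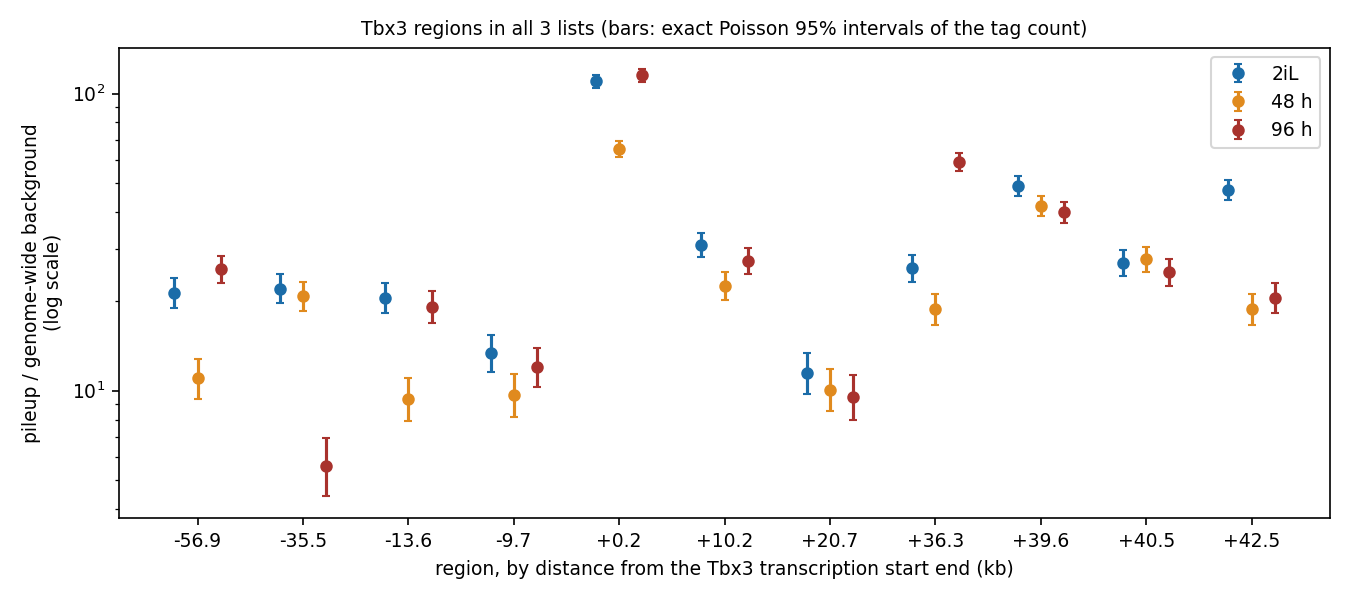
Scaled pileup (tags divided by the genome-wide background of the list, log scale) of the 11 Tbx3 regions in all 3 lists, by distance from the start in kb; points are the 2iL, 48h and 96h lists and bars the exact Poisson 95% intervals of the tag count. The 48h point is under the 2iL point in 10 of 11 regions, and at 96 h the region at 36.3 kb is high and that at -35.5 kb low.

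In these lasting regions the strongest summits of the 3 lists lay within a median of 27 bp of each other. In 9 of 11 regions they lay within 60 bp, and the highest range was 225 bp. Regions were formed by overlap of intervals, which favours close summits. The same ranges were not computed over all regions, so these values are a description only. Across all 34 regions, 11 (32.4%) were in all 3 lists, against 35.9% of all merged regions. Another 12 (35.3%, exact interval 19.7 to 53.5) were in the 2iL list alone, against 20.8% of all merged regions. The remaining 11 were 4 in 2iL and 48h, 3 in 48h alone, 2 in 96h alone, 1 in 48h and 96h and 1 in 2iL and 96h.

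In the lists as deposited, more Tbx3 regions were lost than gained at each step. From 2iL to 48 h, 13 of 28 regions were lost, 46.4% (27.5 to 66.1), against 33.2% of all regions and 38.3% of regions over 1 kb from a gene end. Gained were 4 of the 19 regions at 48 h, 21.1% (6.05 to 45.6), against 31.2% of all and 35.3% of distal regions. From 48 to 96 h, 7 of 19 were lost, 36.8% (16.3 to 61.6), against 30.7% and 35.3%. Gained were 3 of 15, 20% (4.33 to 48.1), against 21.2% and 25.1%. Over the whole course 16 of 28 were lost, 57.1% (37.2 to 75.5), against 44.9% and 51.6%, and 3 of 15 were gained, against 35.5% and 41.3%. The share of all regions lies inside the Tbx3 interval in each of the 6 cases, so at this number of regions no difference from the rest of the lists was detectable. The direction of the second step depended on the lists used: from 48 to 96 h, 3 regions were lost and 3 gained with lists cut to equal length, and 2 were lost and 6 gained with only the intervals above the median strength of each list. With gene ends within 50 kb, 7 of 19 regions were lost by 48 h, against 33.2% of all regions. By 96 h 8 of these 19 were lost, 42.1%, which is below the 44.9% of all regions.

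**Figure D4:**
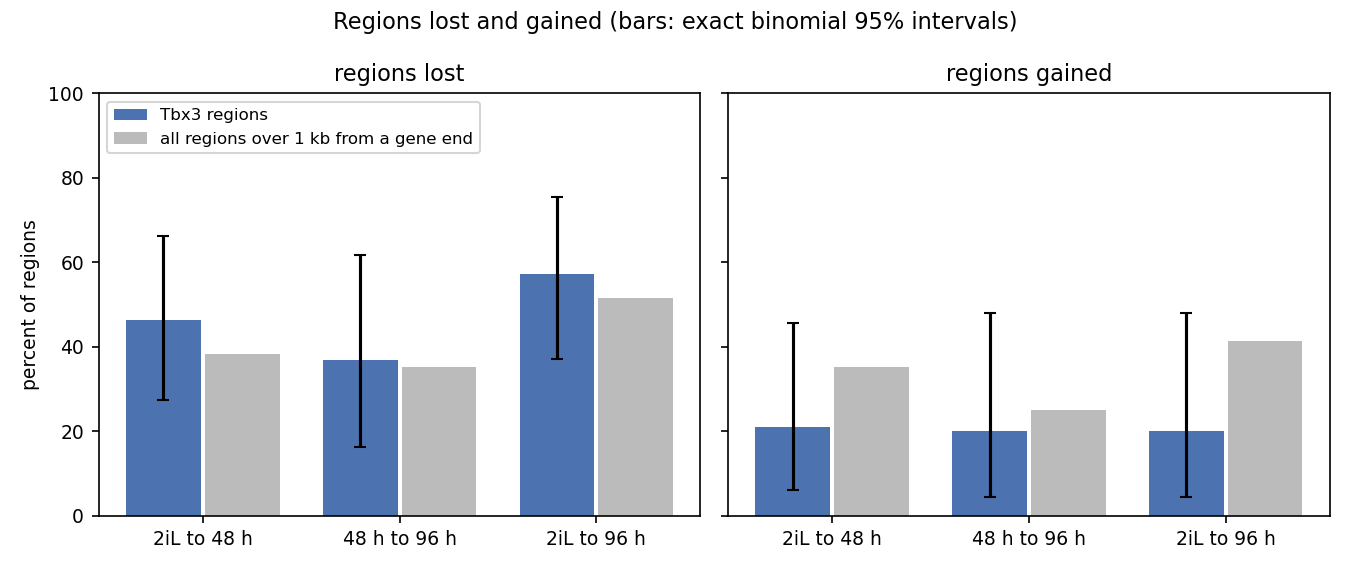
Percent of Tbx3 regions lost from the earlier list (left) and gained in the later list (right) for the 3 pairs of times, with 95% exact binomial intervals, beside the percent of all regions over 1 kb from a gene end (grey). Every Tbx3 interval spans the grey value, for example 37.2 to 75.5 around 57.1% lost from 2iL to 96 h, where distal regions gave 51.6%.

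Regions that left the lists had lower 2iL pileup than those that stayed. The 16 regions lost by 96 h had a median 2iL pileup of 187 tags (131 to 462) and the 12 kept had 340 (163 to 1564), so the ranges overlap. Over the whole 2iL list the medians were 157 and 290 tags. When the 2iL list was cut by p-value into 4 bins of equal size, 9 Tbx3 regions fell in the weakest bin, 8 in the next, 8 in the next and 3 in the strongest. Lost by 96 h were 7, 5 and 4 of the weaker 3 bins, while all 3 of the strongest bin stayed listed. Over the whole list the lost shares of these bins were 71.1%, 55.1%, 38.2% and 15.8%. Lost by 48 h were 6, 3 and 4 of the weaker 3 bins, against 60.3%, 40.7%, 24.2% and 7.99% over the whole list. Applied to the Tbx3 regions, those shares give 14.3 lost regions against the 16 seen by 96 h, and 10.9 against the 13 seen by 48 h.

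From 2iL to 96 h most T-box relatives of Tbx3 had more regions gained than lost. Of the 17 T-box genes, 16 had at least 1 region, and only Tbx3 and Mga, which pairs with Max, had more regions lost than gained from 2iL to 96 h. Among these 16 genes 10 had more gained and 4 had equal numbers, against 44.8% of all genes with more lost and 24.5% with more gained. Of all 18250 genes with a region, 5597 had equal numbers, and the median gene had 3 regions in 2iL. The shares over all genes are therefore not matched for the number of regions. From 2iL to 48 h the counts were 2 and 11, against 33.3% and 32.9%. From 48 to 96 h they were nearly even, with 6 T-box genes with more lost and 7 with more gained, against 43.1% and 17.2% of all genes. Tbx5, the upper neighbour, had 7, 12 and 16 regions in the 3 lists, with 10 gained and 1 lost by 96 h. Tbx2, the closest paralogue of Tbx3, had 7, 10 and 10, and Tbx4, a hindlimb factor, had 10, 16 and 10. Eomes, a factor of early mesoderm and endoderm, had 10, 11 and 13 regions, Tbx15 had 7, 10 and 9, and Tbx19, a pituitary factor, had 4, 7 and 8. Med13l, the lower neighbour, had 41 regions in 2iL, 41 at 48 h and 27 at 96 h. All T-box genes together lost 38 of 101 regions by 96 h (37.6%), a share that includes the 16 of Tbx3, and 57 of their 120 regions at 96 h were gained (47.5%). The shares over all genes were 43.1% lost, which lies inside the T-box interval of 28.2 to 47.8, and 32.6% gained. For the T-box gained share no interval was computed. With only the intervals above the median strength of each list, 4 T-box genes had more regions lost than gained.

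**Figure D5:**
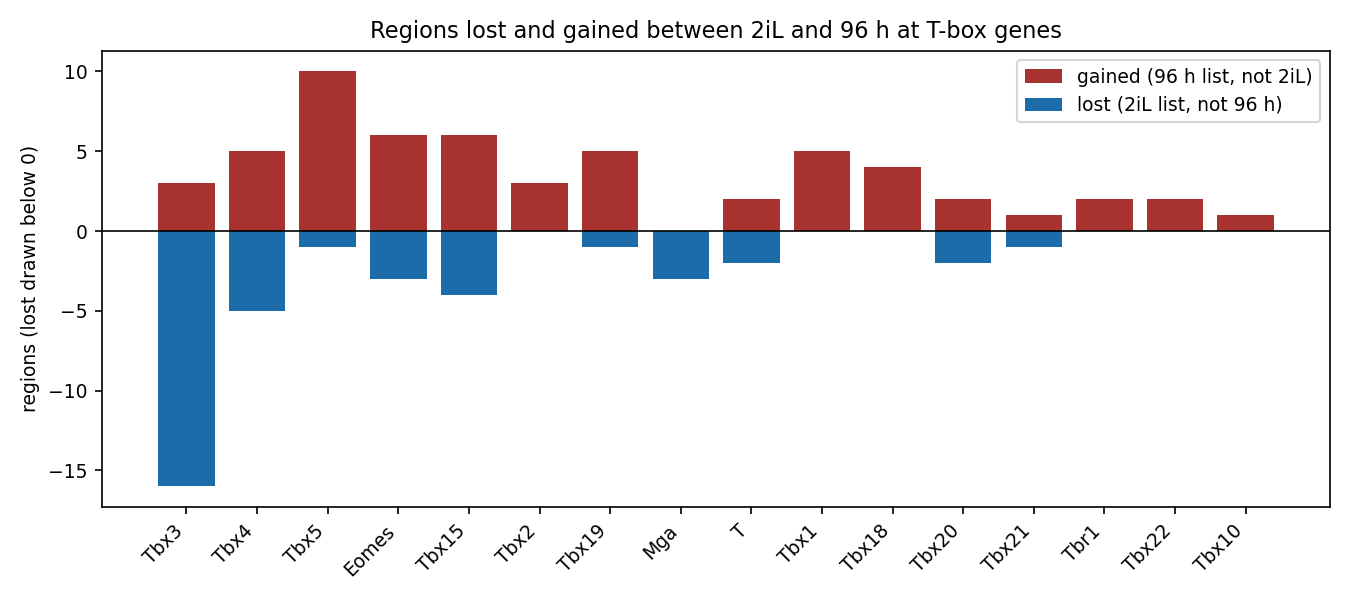
Number of regions gained (red, above 0) and lost (blue, drawn below 0) between the 2iL and 96h lists at each of the 16 T-box genes with a region. Tbx3 lost 16 and gained 3, whereas Tbx5 lost 1 and gained 10.

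Naive regulators, by contrast, showed the same direction as Tbx3. In the list of 20 naive and LIF-pathway genes, 19 had more regions lost than gained by 96 h and Pou5f1 had more gained, and they lost 150 of 250 regions, 60% (53.6 to 66.1). This interval treats regions of the same gene as independent, which was not tested, so it may be too narrow. The list was drawn up with earlier results of these data known and is not independent evidence of its direction. Over all genes 44.8% had more lost and 43.1% of regions were lost. Equal numbers were found at 0 of the 20 naive genes but at 5597 of all 18250 genes with a region. Here too the genes were not matched for the number of regions. From 2iL to 48 h, 13 had more lost and 4 more gained, against 33.3% and 32.9% of all genes. From 48 to 96 h these counts were 13 and 1, against 43.1% and 17.2% of all genes. Klf4, a zinc-finger factor downstream of LIF, had 14, 6 and 6 regions, and Klf5 had 19, 11 and 6. Tfcp2l1, a naive factor of the same pathway, had 16, 6 and 7, and Nanog had 9, 6 and 6. Esrrb, an orphan nuclear receptor, had 28, 28 and 16, with 10 lost and 10 gained behind the equal counts of the first step. Among 10 genes of extraembryonic and definitive endoderm, 2 had more lost and 6 more gained by 96 h, with 22 of 66 regions lost and 37 of 81 gained. Over all genes 44.8% had more lost and 24.5% more gained, and 43.1% of their regions were lost and 32.6% gained. The 43.1% lies inside the exact interval of the endoderm lost share, 33.3% (22.2 to 46.0). For the endoderm gained share no interval was computed.

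The genes most like Tbx3 in how their regions spread over the 7 combinations of lists were sought among the 832 genes with at least 20 regions. The measure was the share of regions that would have to change combination for the 2 genes to match, 0 being identical. The nearest were Sgms1, a sphingomyelin synthase (0.0564, with 20, 13 and 11 regions), and Spred2, an inhibitor of Ras to ERK signalling (0.0588, with 30, 20 and 15). Then came Gm51999 (0.0703, with 18, 14 and 10), the tetraspanin Cd9 (0.0708, with 23, 15 and 13) and Hes1, a Notch target (0.0716, with 32, 21 and 20). The median gene stood at 0.245. Under a likeness computed from the interval counts per list, 0 of these 5 genes were among the nearest 5, so the choice rests on the measure.

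The 100 kb rule also set where the locus ends. On the lower side the region at -95.2 kb, with 153 tags in 2iL, was just inside and that at -107 kb, with 120 tags in 2iL and 135 at 48 h, just outside. On the upper side the region at 63.8 kb was the last one nearer to Tbx3 than to Tbx5.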

How the data were processed

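Open chromatin was profiled by ATAC-seq in 6 samples, 2 in each of 3 groups, and 1 peak list per group was analysed. Picard, SAMtools, BWA, bcl2fastq 2.20.0.422 and the mm10 build are named, with no roles, in the submitters' processing notes. The peak caller, its version and the way samples were joined were, for these lists, not given in the sources used here. In the deposited lists each line holds a summit with its interval. The lists have no header line. By the column order of the narrowPeak format and the values, the authors' deposited columns are a fold enrichment (a ratio of tags to local background), a −log10 p-value and an interval score. They were used only within their own list, and a −log10 q-value column was not used. Depth as total reads is unknown.

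Python 3.11.15 with NumPy 2.4.6, SciPy 1.17.1, pandas 2.3.3 and matplotlib 3.10.9 was used. Summits of the same interval were joined, intervals overlapping by at least 1 bp across lists were merged into regions, and each was given to the nearest end of a RefSeq protein-coding gene (21900 genes) within 100 kb. Pileup and local background were solved from the fold and the p-value, assuming a Poisson p-value and a pseudocount of 1 tag in the fold, which no source states. All tag values rest on this assumption. The solver was tested on data simulated under the same assumption, so that test checks the calculation and not the assumption. A region was called lost or gained by its absence from or presence in the other list. Shares have exact Clopper-Pearson intervals and pileups exact Poisson intervals, both 95% and for counting error only. The intervals of shares treat regions as independent, which was not tested for regions of the same gene. No per-sample columns were left unused (0).

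Genes named in the text are Tbx3, its neighbours, Tbx2 and T-box genes with at least 10 regions, 5 naive regulators, and the 5 genes most like Tbx3 in listing pattern. The single genes Mga and Pou5f1 were named after their values were seen. All 47 list genes matched RefSeq symbols. The members and lists were chosen with earlier results of these data known.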

Additional observations from a re-analysis of the deposited data

How the results depend on the processing

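Over the alternatives run, 51 of 65 values stayed within 1.5 times those reported. Settings that assigned genes by summit, asked for an overlap of 50% of the shorter interval, matched summits within 250 bp, took the widest interval in a region, or divided pileups by the median region in all 3 lists moved none past that limit. The last of these, and the CTCF search, were added after seeing the data. With only the intervals above the median strength of each list, Tbx3 had 11, 4 and 8 intervals. Under that setting 8 regions were lost and 1 gained from 2iL to 48 h, 2 lost and 6 gained from 48 to 96 h, 5 lost from 2iL to 96 h, and 2 were in all 3 lists, while 4 T-box genes had more regions lost than gained. With lists cut to equal length, 3 regions were lost from 48 to 96 h. With gene ends within 50 kb, 7 of 19 were lost by 48 h and 8 of 19 by 96 h. The latter share, 42.1%, is below the 44.9% of all regions. By 96 h the stricter lists gave 5 of 11 lost, 45.45% against 41.55% of all regions. The lists of equal length gave 13 of 25 lost, 52% against 39.95%. The likeness over interval counts kept 0 of the 5 genes. The cause of these differences was not tested, apart from the fewer intervals that a stricter list or a shorter distance holds.

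No paired analysis was possible because samples A and B of each group share 1 list, and for the same reason none was left out in turn. Differences between times cannot be told apart from differences between the libraries.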

Other observations

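Beyond 100 kb, in the gene-poor stretch below Tbx3, a further 14 regions had an end of Tbx3 as their nearest protein-coding gene end, the farthest 437 kb away. They were not counted with the locus. The 2iL list held 9 of them, the 48h list 4 and the 96h list 5, and 0 of the 14 were in all 3 lists. All 9 regions of the 2iL list were gone by 96 h, and the 5 regions at 96 h had no 2iL interval. Over all regions 44.9% were lost, 35.5% gained and 35.9% in all 3 lists, and of distal regions, over 1 kb from any gene end, 51.6% were lost and 41.3% gained. The strongest, at -360 kb, had 695 tags and was among the 7 regions found in the 2iL list only.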
